A study of Mus musculus with 20 samples.

Results

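The 8 loci described here are non-coding host genes of small nucleolar RNAs (snoRNAs): Gas5, Snhg1, Snhg3, Snhg12, Snhg5, Snhg6, Dancr and Epb41l4aos. They were taken by their locus identifiers from a deposited catalogue of long intergenic non-coding RNA (lincRNA) models, which is labelled NONCODE. The loci make up 8 of its 29286 loci, 65 of its 40856 transcripts and 297 of its 86377 exon lines. These small RNAs guide the chemical modification and processing of ribosomal RNA, and most of them in mammals are not made from genes of their own. They lie in introns of host genes and are cut out of the spliced intron, where bound proteins protect them from exonucleases. Several hosts encode no protein, so that their spliced exons form a long non-coding RNA while their introns carry the snoRNAs. In C/D box snoRNAs, which guide ribose methylation, a C box lies near the 5′ end and a D box near the 3′ end. H/ACA snoRNAs, which guide pseudouridylation, end shortly after an ACA triplet.

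The catalogue accompanies a study of RNA captured with newly replicated DNA in wild-type mouse embryonic stem cells and NIH3T3 fibroblasts, with 20 libraries in 10 groups of 2. Cells of both types were given EdU, a thymidine analogue, and biotin was joined to it by a click reaction, except in the no click control. Without hydroxyurea there were the no click and the click normal groups, while click HU, click chase and click protease were labelled with hydroxyurea (4 mM for 4 h), an agent that stalls replication forks. NIH3T3 is an immortalised line, synchronised with thymidine before the label. The deposited table holds exon positions without a value for any library, so levels of these RNAs and differences between the groups are not analysed here, and read depth is unknown.

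All loci below are on build mm9 with 1-based positions. Gas5, a gene first described for its rise in growth-arrested cells, is locus NONMMUG002215 on the plus strand of chromosome 1 (162964553 to 162968670). Snhg6 is NONMMUG000083, on the minus strand of the same chromosome (9931764 to 9934218). Snhg12 (NONMMUG030863, plus strand, 131864593 to 131866939) and Snhg3 (NONMMUG030867, minus strand, 131903929 to 131909601) are both on chromosome 4, with 36989 nt between them. Dancr, an RNA known for restraining differentiation, is NONMMUG032758 on chromosome 5 (plus strand, 74489085 to 74491430). Snhg5 is NONMMUG043532 on chromosome 9 (minus strand, 88415891 to 88417767), Epb41l4aos is NONMMUG019605 on chromosome 18 (plus strand, 33954514 to 33955784) and Snhg1 is NONMMUG020761 on chromosome 19 (plus strand, 8797897 to 8800935).

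The names rest on lengths, because the catalogue carries no gene symbols. For each of the 8 loci, a run of intron, exon and intron lengths was shared with the GENCODE M21 gene of that name on the same chromosome and strand. GENCODE is on GRCm38, so positions were never carried between the builds. Of the 54 distinct introns of the 8 loci, 49 had an intron of exactly the same length in the named gene. Of the 65 transcripts, 42 had the same length in every exon and intron as a GENCODE transcript, among them all 24 of Gas5 and none of the 5 of Epb41l4aos. The lowest share of tied introns was in Snhg6, with 4 of 8.

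The sequences below show what a retained host intron contains. An intron is called retained when an exon of another transcript of the same locus covers it from its first to its last base. For the 4 hosts with a retained intron of at most 300 nt around a single snoRNA, the shortest such intron is printed 5′ to 3′. The letters were read from the GENCODE M21 transcript that covers it, with the snoRNA in capitals and its GRCm38 position in parentheses.
Gas5, intron with Gm22489 (chr1:161035805-161035982, plus strand): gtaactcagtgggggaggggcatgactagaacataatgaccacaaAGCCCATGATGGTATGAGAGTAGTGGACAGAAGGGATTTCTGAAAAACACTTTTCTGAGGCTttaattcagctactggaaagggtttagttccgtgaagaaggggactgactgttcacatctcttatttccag
Snhg1, intron with Gm22744 (chr19:8725047-8725221, plus strand): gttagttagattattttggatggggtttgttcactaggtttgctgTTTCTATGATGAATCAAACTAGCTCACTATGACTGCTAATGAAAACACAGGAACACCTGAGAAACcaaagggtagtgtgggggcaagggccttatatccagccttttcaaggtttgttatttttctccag
Snhg12, intron with Snora61 (chr4:132310216-132310450, plus strand): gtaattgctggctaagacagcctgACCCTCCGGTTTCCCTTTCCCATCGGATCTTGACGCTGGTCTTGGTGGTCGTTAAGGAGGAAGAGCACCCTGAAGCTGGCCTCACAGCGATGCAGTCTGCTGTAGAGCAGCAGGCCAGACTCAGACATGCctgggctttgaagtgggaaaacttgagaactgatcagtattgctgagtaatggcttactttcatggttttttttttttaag
Snhg5, intron with Snord50a (chr9:88521449-88521649, minus strand): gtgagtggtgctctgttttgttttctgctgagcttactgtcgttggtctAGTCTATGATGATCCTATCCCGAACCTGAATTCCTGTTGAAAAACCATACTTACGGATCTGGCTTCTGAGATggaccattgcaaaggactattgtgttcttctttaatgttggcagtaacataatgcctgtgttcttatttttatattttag

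These 4 introns begin with gt and end with ag, the usual splice signals. The same held for all 32 retained introns that had a GENCODE counterpart (chromosome 18 left out). An intron is counted here only where a transcript splices it, so such ends say nothing particular about the retained ones. They were not set beside the ends of other introns. In each of the 4 the snoRNA stands nearer to the 5′ than to the 3′ splice site, by differing amounts. It begins 45 nt from the 5′ splice site and ends 71 nt from the 3′ splice site in Gas5, 45 and 65 nt in Snhg1, 24 and 81 nt in Snhg12, and 49 and 80 nt in Snhg5.

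The hosts had many isoforms for this catalogue. Gas5 held 24 transcripts, Snhg5 and Snhg6 held 8 each, Snhg12 held 7, Snhg3 held 6, Epb41l4aos held 5, Dancr held 4 and Snhg1 held 3, a median of 6.5. Of the 8, 6 reached 5 transcripts. Over the whole catalogue 2.17% of loci had 5 or more transcripts, and among the 13519 loci with a spliced transcript 4.64% did. Of the 65 transcripts, 62 were spliced, and no pair of spliced transcripts of a host had the same introns. Neither count was set beside a share over other loci.

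Host exons were short. The 46 distinct internal exons had a median of 65.5 nt (quartiles 43 and 132.5 nt), against 126 nt (quartiles 86 and 187.25 nt) over the 12040 internal exons of all spliced loci. Of the 46, 20 (43.5%) were under 60 nt, where the share over all spliced loci was 11.7%. Most of these 20 were in Gas5 and Snhg1, whose median internal exons were 50.5 and 47 nt. In the other hosts the medians ran from 62 nt in Dancr to 99.5 nt in Epb41l4aos. Snhg6, Dancr and Epb41l4aos had none under 60 nt, with shortest internal exons of 69, 62 and 63 nt. The 36 internal exons with no retained intron inside them had a median of 53.5 nt and ranged from 28 to 362 nt. The other 10 ran through at least 1 intron, with a median of 358.5 nt and a range of 260 to 1333 nt. First exons of the hosts had a median of 132 nt and last exons of 203 nt, against 183 and 387 nt over all spliced loci.

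Host introns were short as well. The 54 distinct introns had a median of 261 nt (quartiles 190 and 472.75 nt), against 1503 nt (quartiles 438 and 5325 nt) over the 30789 introns of all spliced loci. Of the 54, 41 (75.9%) were under 500 nt, where 27.2% of all introns were. By host the medians ran from 195.5 nt in Snhg6, 228 nt in Snhg1 and 232.5 nt in Snhg5 through 287.5 nt in Gas5, 288 nt in Snhg12, 332.5 nt in Epb41l4aos and 343 nt in Dancr to 474 nt in Snhg3. Each of these lies below the median of all spliced loci. Snhg3 also had the longest host intron, 4001 nt, which was spliced in a single transcript, NONMMUT049849, and joined a remote last exon of 107 nt. The shortest was a gap of 35 nt in NONMMUT000121 of Snhg6, which had no counterpart in GENCODE.

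**Figure D1:**
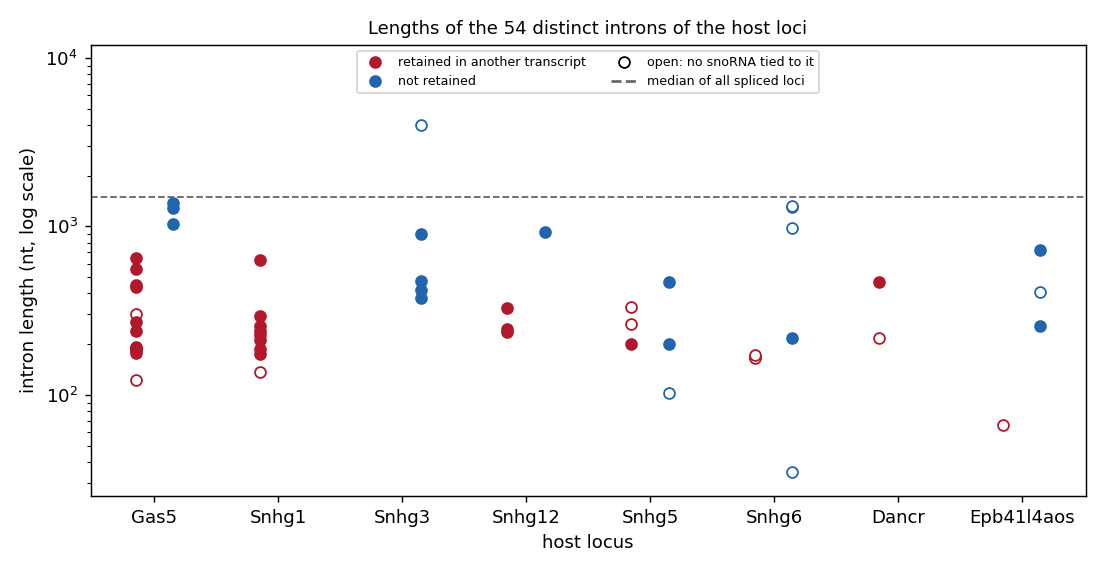
Length of each of the 54 distinct introns (vertical axis, nt, log scale) by host locus (horizontal axis), red where an exon of another transcript covers the intron and blue where none does, filled where GENCODE places a snoRNA inside the tied intron. The dashed line is the median of all spliced loci, 1503 nt, and 1 host intron, of 4001 nt in Snhg3, lies above it.

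Retained introns were common in the hosts. By the rule above 34 of the 54 distinct introns (63.0%) were retained, in 7 of the 8 loci. Over the spliced loci with 2 or more transcripts the share of introns was 11.0% (1864 of 16883), and 24.6% of those 3902 loci had a retained intron. The share over the catalogue was higher in loci with more transcripts and for shorter introns: 9.58% of introns were retained where a locus had 3 or 4 transcripts and 15.6% where it had 5 or more. Among introns under 500 nt the share was 30.6% in loci with 2 or more transcripts and 44.3% in loci with 5 or more, against 4.67% for introns of 500 nt or more. In the hosts 31 of 41 introns under 500 nt (75.6%) and 3 of 13 longer ones (23.1%) were retained. The 3 retained introns of Snhg6 are overlapping versions of 1 intron. In Gas5 the retained introns of 435 and 652 nt each enclose those of 271 and 123 nt. That of 652 nt also encloses that of 189 nt. The counts are therefore of distinct pairs of splice sites and not of separate places in a gene. Of the 32 transcripts that retained an intron, 22 match a transcript that GENCODE itself types as a retained intron. Of these 22, 18 were of Gas5, 2 of Snhg1 and 1 each of Snhg5 and Dancr, and none of the 4 in Snhg12 was typed so. Since 42 of the 65 models have all lengths of a GENCODE transcript, the match is not independent evidence. No share over other loci was counted. Without Gas5, 21 introns of the other 7 loci were retained. Where the covering exon had to start and end exactly with the 2 exons flanking the intron, 11 of the 34 remained retained, 9 of them in Gas5, 1 in Snhg1 and 1 in Snhg6. That is 20.4% of the 54 host introns, where the same rule called 2.06% of introns in spliced loci with 2 or more transcripts and 3.63% in those with 5 or more.

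Gas5 carried the most retained introns, 13 of 16, and 18 of its 24 transcripts retained at least 1. Its fullest transcript, NONMMUT003413, had 12 exons and only 502 nt, since 85.1% of its span from first to last exon was intron. Its exons measured 32, 53, 32, 37, 31, 33, 41, 28, 43, 43, 48 and 81 nt in 5′ to 3′ order, so each but the last was under 60 nt. The intron retained most often was the 304 nt intron between the exons of 37 and 31 nt, which 9 transcripts retained and 10 spliced. It was also an intron in which GENCODE places no snoRNA. Next came the 271 nt intron around Snord78, retained in 5 transcripts and spliced in 2. The introns of 435, 123 and 189 nt were each retained in 4 transcripts, the last of them around the snoRNA that GENCODE names Mir5117, and spliced in 7, 3 and 12. The 178 nt intron printed above was retained in 2 transcripts, NONMMUT003417 and NONMMUT003421, and spliced in 16.

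Single Gas5 transcripts differed in how many introns they retained. NONMMUT003417, the longest at 2556 nt, retained 10 distinct introns in a single first exon of 2382 nt and then spliced the last 3. NONMMUT003424 (1614 nt) retained 6, NONMMUT003426 (1066 nt) retained 4 and NONMMUT003409 (712 nt) retained 3, while the other 14 of these transcripts retained 1 or 2. The 10 introns of NONMMUT003417 include those of 435 and 652 nt, which enclose shorter introns also counted. The counts of NONMMUT003424, NONMMUT003426 and NONMMUT003409 likewise include that of 435 nt. The shortest transcript, NONMMUT003419 at 346 nt, retained none and skipped from the exon of 33 nt to that of 48 nt over an intron of 1372 nt, the longest of the locus. Exon skipping in Gas5 touched 6 of its 18 distinct internal exons, 2 of which (260 and 533 nt) were versions with a retained intron inside. The exon of 41 nt was present in 2 transcripts and skipped by 10, the exon of 28 nt was present in 9 and skipped by 3, and the exons of 43 nt were each skipped by 2.

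**Figure D2:**
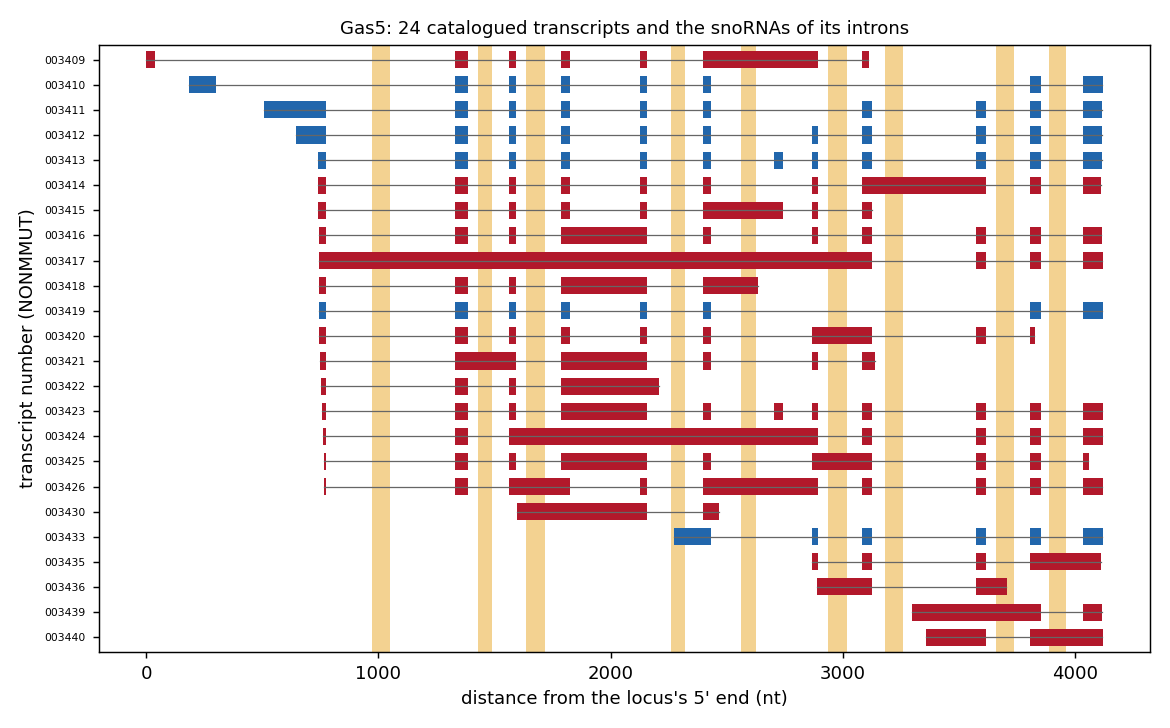
The 24 Gas5 transcripts in rows, with boxes for exons and lines for introns by distance from the 5′ end of the locus (horizontal axis, nt), red where the transcript retains at least 1 intron and blue where it retains none. Yellow bands mark the 9 snoRNAs, placed by their distance from the splice sites of the tied intron, and in 15 rows a box covers at least 1 whole band.

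Snhg1 had the fewest transcripts of the 8 hosts, and they differed widely in length. NONMMUT033788 was fully spliced, with 10 exons in 675 nt. NONMMUT033789 had 4 exons in 2348 nt and retained 6 introns, and NONMMUT033790 had 2 exons in 2728 nt and retained 8. Between them all 9 introns of Snhg1 were retained at least once. Its introns ran from 136 to 634 nt and its 8 short internal exons from 33 to 81 nt, and the longest internal exon, of 1121 nt, spanned 4 introns. No exon of Snhg1 was skipped.

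In Snhg12 each of 4 transcripts (NONMMUT049830, NONMMUT049833, NONMMUT049837 and NONMMUT049839) retained 1 intron, so that the introns of 247, 235 and 329 nt were each retained and that of 930 nt was not. Its 3 internal exons, of 66, 65 and 54 nt, were never skipped. In Snhg5 the intron of 264 nt was retained in 2 transcripts and those of 331 and 201 nt in 1 each, with the last around Snord50a. The other intron of 201 nt, around Snord50b, and those of 102 and 469 nt were not retained. Both introns of Dancr were retained: that of 218 nt in 2 transcripts, which are single exons of 2346 and 1277 nt, and that of 468 nt in these and in NONMMUT052753. The only fully spliced Dancr transcript, NONMMUT052752, had 3 exons in 575 nt.

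Snhg6, Epb41l4aos and Snhg3 had the lowest shares of retained introns among the hosts, 37.5%, 25% and 0%. The share was 15.6% over spliced loci with 5 or more transcripts. In Snhg6 a single transcript, NONMMUT000125, retained introns, those of 166, 167 and 173 nt, whose splice sites lie within a few bases of each other. The 218 nt intron of Snhg6, which holds its snoRNA, was spliced in all 8 transcripts. In Epb41l4aos NONMMUT031876 retained the 66 nt intron, and the exon of 63 nt was present in 2 transcripts and skipped by 2. In Snhg3 none of the 5 introns was retained. Its 5 introns form 2 pairs of overlapping versions (898 and 474 nt, 419 and 376 nt) and the 4001 nt intron.

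**Figure D3:**
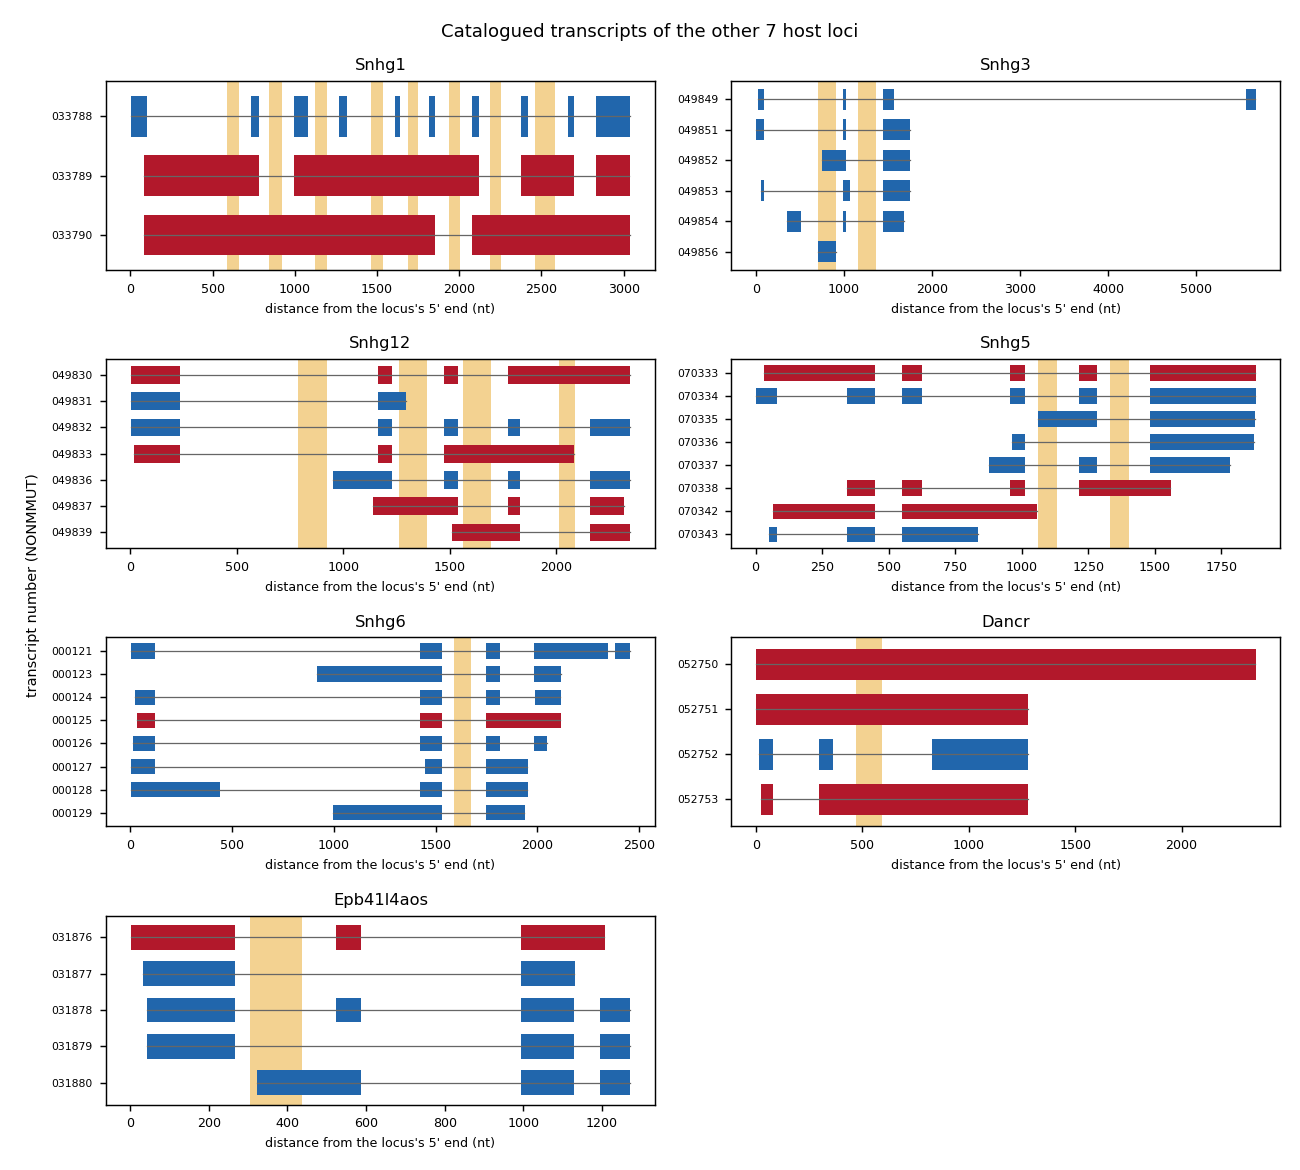
Transcripts of the other 7 hosts in rows, with boxes for exons and lines for introns by distance from the 5′ end of each locus (horizontal axes, nt), red where the transcript retains at least 1 intron. Yellow bands mark snoRNAs, and the map of Snhg3 shows the single-exon transcript NONMMUT049856 filling such a band.

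An internal exon is called skipped when an intron of another transcript of the locus covers it whole. Over the 8 loci 8 of 46 distinct internal exons (17.4%) were skipped, against 30.0% over all spliced loci with 2 or more transcripts. These were 6 in Gas5, 1 in Snhg5 and 1 in Epb41l4aos. Only 4 of the 8 (8.7% of the 46) remained where the intron had to join the exons next to the skipped one. No share over the catalogue was counted under that rule, so it cannot be set against the 30.0%. Splice sites used with more than 1 partner numbered 15, of which 5 were 5′ splice sites and 10 were 3′ splice sites. They made up 16.7% of the 90 host splice sites, against 19.3% in spliced loci with 2 or more transcripts and 27.4% in those with 5 or more. Transcript ends also varied, and Gas5 had 19 distinct starts and 15 distinct ends, and Snhg5 had 8 and 7. Whether such ends are start and polyadenylation sites or the ends of incomplete models is not recorded in the catalogue.

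GENCODE places 28 snoRNAs in the introns of these 8 genes, each in a separate shortest intron. Gas5 held 9, Snhg1 held 8, Snhg12 held 4 (Snora16a, Snora44, Snora61 and Snord99), Snhg3 held 2 (Snora73a and Snora73b), Snhg5 held 2 (Snord50a and Snord50b), and Snhg6 (Snord87), Dancr (Snora26) and Epb41l4aos (Gm23639) held 1 each. Alternative splicing puts the same snoRNA inside more than 1 intron, so 37 of the 49 tied introns enclosed a snoRNA and 12 enclosed none. Of the 37, 24 (64.9%) were retained, and of the 12, 8 (66.7%) were. Counting only the shortest intron around each snoRNA, 22 of 28 (78.6%) were retained. This choice leaves out longer introns around the same snoRNAs, and 75.6% of all host introns under 500 nt were retained.

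Most of the snoRNAs lay at a similar distance from the end of their introns. The distance from the 3′ end of the snoRNA to the 3′ splice site had a median of 76 nt, and in 23 of 28 (82.1%) it was between 60 and 120 nt, limits chosen after the values were seen. Among the 549 snoRNAs that GENCODE places in introns, these 28 included, 20.9% lay within those limits. By name, 7 of 8 host snoRNAs with a Snord name (the C/D box class) lay within them, against 53.8% of all 93 such entries. For Snora names (the H/ACA class) it was 4 of 6 against 37.8% of 37, and for other names 12 of 14 against 12.2% of 419. Each of these totals includes the host snoRNAs. The 5 host snoRNAs outside the limits were Snord80 and Gm26224 of Gas5 at 313 and 278 nt, Snora16a of Snhg12 and Snora26 of Dancr at 237 nt each, and Gm23246 of Snhg1, just outside at 121 nt. The distance to the 5′ splice site varied more, from 24 nt for Snora61 to 556 nt for Snora16a, with a median of 56.5 nt. In Snhg1 the distances to the 3′ splice site were 65 to 121 nt while these introns ran from 175 to 634 nt. Its longest introns, of 634 and 292 nt, had 486 and 146 nt between the 5′ splice site and the snoRNA.

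**Figure D4:**
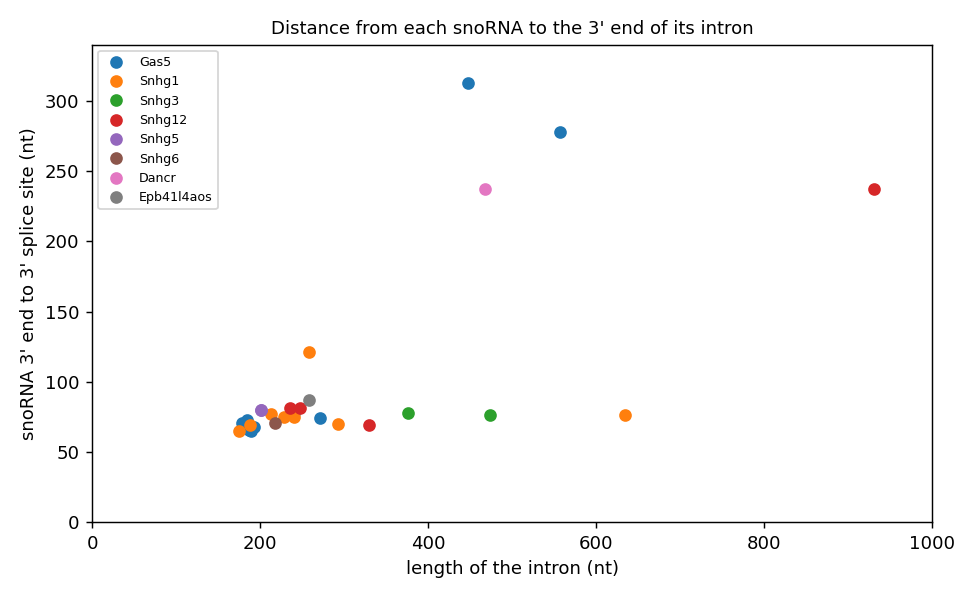
Distance from the 3′ end of each of the 28 snoRNAs to the 3′ splice site (vertical axis, nt) against the length of the shortest tied intron around it (horizontal axis, nt), coloured by host. Of the 28 points 23 lie between 60 and 120 nt, and the 4 highest are at 237, 237, 278 and 313 nt.

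Box motifs in the snoRNAs differed between the hosts. The hexamer TGATGA, the core of the C box, stood within the first 20 bases in 16 of 28 snoRNAs, and the D box tetramer CTGA within the last 15 bases in 21, with both in 16. Both motifs were searched on the RNA strand only, with windows set after the sequences were seen, and over all 1529 GENCODE snoRNAs the shares were 21.6% for TGATGA, 30.8% for CTGA and 20.1% for both. All 9 snoRNAs of Gas5, all 8 of Snhg1, both of Snhg5, Snord99 of Snhg12 and Snord87 of Snhg6 had the CTGA. ACA stood within the last 6 bases in 7 snoRNAs (46.2% over all GENCODE snoRNAs): both of Snhg3, Snora16a and Snora61 of Snhg12, Snora26 of Dancr, Gm23639 of Epb41l4aos, and Mir5117 of Gas5, which also had both C/D motifs. Snora44 of Snhg12 had none of the 3 motifs in these windows. Snhg12 held snoRNAs of both Snora and Snord names. A C/D and an H/ACA snoRNA from hosts not yet shown illustrate the motifs, which are in capitals.
Snord87 of Snhg6, TGATGA and CTGA in capitals (chr1:9942463-9942549, GRCm38, minus strand): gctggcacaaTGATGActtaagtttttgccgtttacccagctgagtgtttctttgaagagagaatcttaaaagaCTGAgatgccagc
Snora26 of Dancr, ACA in capitals (chr5:74093530-74093650, GRCm38, plus strand): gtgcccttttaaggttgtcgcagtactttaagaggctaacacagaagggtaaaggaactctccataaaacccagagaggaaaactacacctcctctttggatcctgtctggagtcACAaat

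Where an exon covers a snoRNA, the snoRNA is part of the catalogued transcript. Offsets within introns of equal length were used to find these cases, and 24 of the 28 snoRNAs lay whole in an exon of at least 1 transcript of their host. In total 27 of the 65 transcripts contained at least 1 snoRNA, among them 15 of 24 in Gas5, 4 of 7 in Snhg12, 3 of 4 in Dancr, 2 of 3 in Snhg1, 2 of 8 in Snhg5 and 1 of 6 in Snhg3. Of the 27, 3 were single exons, NONMMUT052750 and NONMMUT052751 of Dancr and NONMMUT049856 of Snhg3. The Snhg3 exon has the length of Snora73a itself and is the only exon that holds it whole. Neither the 24 snoRNAs nor the 27 transcripts were set beside a share over other loci. Snord78 lay in an exon of 6 Gas5 transcripts and in a spliced-out intron of 12. Snora26 had the highest share of the 28, whole in an exon of 3 of 4 Dancr transcripts, 2 of them the single exons. The 4 that no exon of their host contained whole were Snora73b, Snora16a, Snord87 and Gm23639. Exon ends fell inside a snoRNA in 6 transcripts, as in NONMMUT031880 of Epb41l4aos, whose first exon begins within Gm23639. Transcript ends also fell close to snoRNA ends, in cases chosen after their values were seen. NONMMUT070335 of Snhg5 began 1 nt before the 5′ end of Snord50b and ran through it to the next splice site, and NONMMUT049833 of Snhg12 ended 5 nt short of the 3′ end of Snord99.

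**Figure D5:**
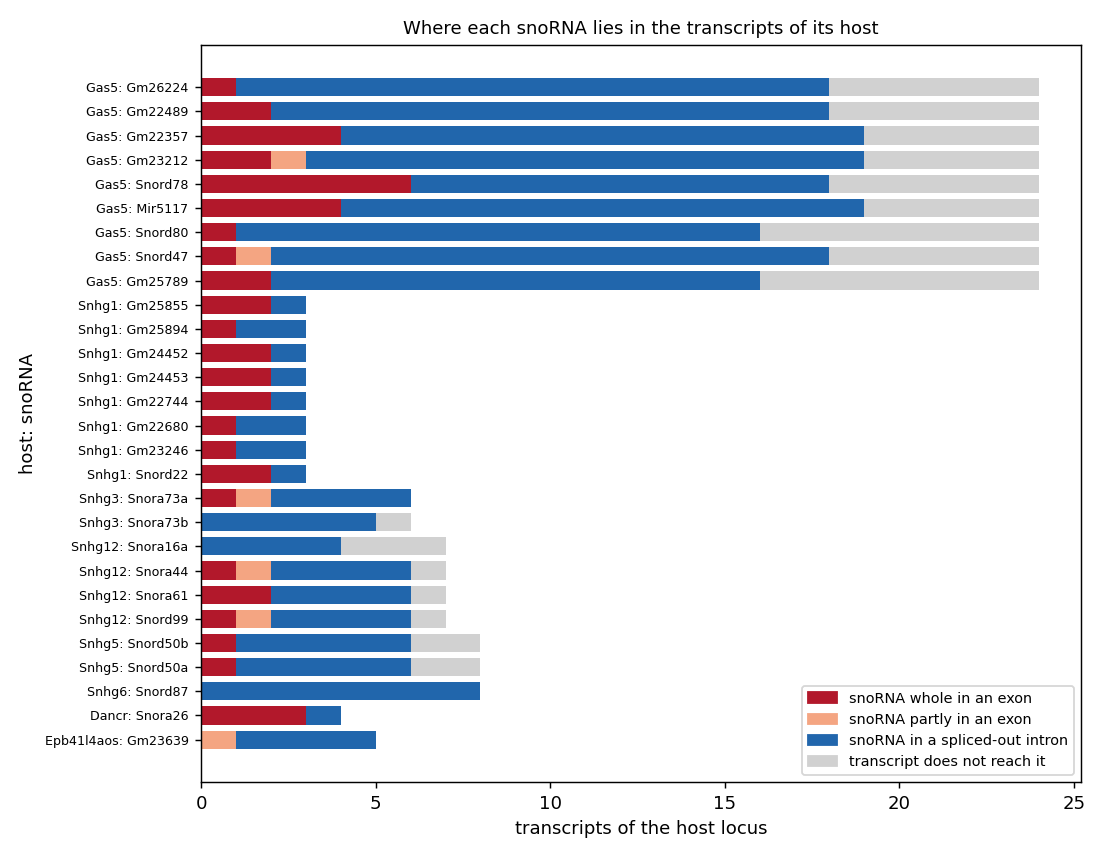
Number of transcripts of the host locus (horizontal axis) in which each of the 28 snoRNAs (vertical axis) lies whole in an exon (red), partly in an exon (orange) or in a spliced-out intron (blue), or which do not extend to it (grey). Blue is the longest segment for each Gas5 snoRNA. Red is the longest for Snora26 of Dancr and for Gm25855, Gm24452, Gm24453, Gm22744 and Snord22 of Snhg1.

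In Snhg3 the snoRNAs themselves were catalogued as lincRNA. Snora73a and Snora73b, also known as U17 RNAs, are long H/ACA snoRNAs that act in the cleavage of ribosomal RNA precursors. Transcript NONMMUT049856, listed as the sixth isoform of Snhg3, is a single exon of 205 nt (mm9 chromosome 4, 131908690 to 131908894, minus strand) that lies 193 nt after the 5′ splice site and 76 nt before the 3′ splice site of the 474 nt intron. These are exactly the length and place of Snora73a in GENCODE. NONMMUT049855, the only transcript of a separate locus, NONMMUG030869 (131908237 to 131908441, minus strand), likewise has the 205 nt of Snora73b and its place, 78 nt before the 3′ splice site of the 376 nt intron. No other snoRNA of the 8 hosts had an entry of its own. The shortest transcript of the whole catalogue was 201 nt, and the other 26 host snoRNAs are 60 to 137 nt long. Like NONMMUG030869, 2.21% of all loci lay inside an intron of another locus on the same strand.

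Both U17 sequences are given to show how alike the catalogued entries are. Capitals mark the bases at which they differ when aligned without gaps.
Snora73a (chr4:132352775-132352979, GRCm38, minus strand): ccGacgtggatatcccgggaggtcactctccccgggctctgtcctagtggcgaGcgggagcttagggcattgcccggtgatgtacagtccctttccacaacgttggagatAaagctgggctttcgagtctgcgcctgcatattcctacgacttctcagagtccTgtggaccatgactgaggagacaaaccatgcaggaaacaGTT
Snora73b (chr4:132352322-132352526, GRCm38, minus strand): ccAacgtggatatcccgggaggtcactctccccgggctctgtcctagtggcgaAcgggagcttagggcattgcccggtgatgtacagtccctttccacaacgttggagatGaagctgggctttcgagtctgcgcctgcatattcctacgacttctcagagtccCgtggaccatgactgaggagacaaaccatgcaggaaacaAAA
They share 198 of 205 bases (96.6%), and 3 of the 7 differences are the last 3 bases. A read that covers no capital fits both RNAs. How the submitters treated such reads was not stated in the labels.

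Antisense models overlapped exons of 2 of the 8 hosts, where 5.49% of all catalogued loci shared an exon base with a locus on the opposite strand. NONMMUG030868 (chromosome 4, plus strand, 131907687 to 131909297), a single spliced transcript with exons of 949 and 578 nt, shared 751 exon bases with Snhg3, and its exon of 949 nt covers the Snora73b entry whole while that of 578 nt covers part of the Snora73a entry. NONMMUG032757 (chromosome 5, minus strand, 74487489 to 74489319, 3 transcripts) shared 235 exon bases with the 5′ end of Dancr, and the 5′ ends of the 2 loci overlap head to head. Without strand, reads in these shared bases cannot be assigned to either partner, and no label states if the libraries were stranded. The other 6 hosts overlapped no catalogued locus, and the nearest ones lay between 26182 nt (Snhg1) and 112887 nt (Snhg6) away.

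Many hosts of snoRNAs begin with a C followed by a run of pyrimidines, the 5′ terminal oligopyrimidine tract known from genes of the translation machinery. RefSeq start sites on GRCm38.p6 were available for 6 hosts, with 2 starts for Gas5. The 40 bases around the starts are printed with the run of C and T from the start in capitals, because the starts of the catalogued transcripts are compared with them.
Gas5, downstream start (chr1:161035166, plus strand): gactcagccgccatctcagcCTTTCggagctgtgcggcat
Gas5, upstream start (chr1:161034601, plus strand): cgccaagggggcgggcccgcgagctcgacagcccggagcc
Snhg1 (chr19:8723487, plus strand): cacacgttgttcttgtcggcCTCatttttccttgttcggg
Snhg12 (chr4:132308678, plus strand): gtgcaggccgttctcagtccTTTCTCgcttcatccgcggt
Snhg3 (chr4:132353686, minus strand): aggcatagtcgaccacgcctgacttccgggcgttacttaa
Snhg5 (chr9:88522897, minus strand): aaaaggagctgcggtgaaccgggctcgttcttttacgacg
Dancr (chr5:74093060, plus strand): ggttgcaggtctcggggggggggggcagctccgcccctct
The run was 5 bases at the downstream Gas5 start, 6 at that of Snhg12 and 3 at that of Snhg1, and 0 at the other 4. Of 32851 RefSeq starts, 4.44% had a run of 5 or more and 10.7% of 3 or more. Snhg12 begins with T, so only the downstream Gas5 start had a C followed by at least 4 pyrimidines, as 2.51% of all starts did. The base before the Snhg12 start is a C, so this call depends on the exact base taken as the start. Measured from the splice site of the first exon, or from the first tied intron inside a single exon, 4 Gas5 transcripts began at exactly the base of the downstream start and 14 of the 22 that could be compared within 25 nt of it. Of the 23 that could be compared with the upstream start, 0 began at it and 1 began within 25 nt of it. In Snhg1 2 of 3 transcripts and in Snhg12 3 of 7 began at exactly the RefSeq base, and in Dancr 2 of 4 did, both single exons, against 1 of 5 in Snhg3 and 1 of 8 in Snhg5.

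Of 14 other non-coding hosts listed for comparison, 4 had a catalogued counterpart by a shared run of lengths. These were Snhg15 (6 transcripts, median intron 1305 nt), Snhg17 (10 transcripts, 1026 nt), Rian (24 transcripts, 1585.5 nt) and Snhg14, whose lengths matched 2 loci (24 and 19 transcripts, 4919 and 989 nt). All 5 loci thus had 5 or more transcripts, and their median introns were longer than those of each of the 8 hosts. Retained introns numbered 1 of 5 in Snhg15, 7 of 11 in Snhg17, 14 of 42 in Rian and 0 of 41 and 5 of 17 in the loci of Snhg14. Snhg8, Snhg11, Snhg20 and Zfas1 shared no run with a catalogued locus, Snhg9, Snhg10 and Snhg18 have fewer than 3 exons in GENCODE, and Snhg4, Snhg7 and Snhg16 were not found there by name. Over all 22 other loci whose matched GENCODE gene has a snoRNA in an intron, the median intron was 2374 nt, and 22 of 44 introns under 500 nt (50%) were retained. These short introns were counted over all 22 loci, and an intron of a locus with 1 transcript cannot be called retained. Of the 22 loci, 16 had 2 or more transcripts, and 44 of their 224 introns of any length (19.6%) were retained.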

How the data were processed

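The exon table was deposited as a catalogue of lincRNA models, with exon positions and no other unit, and Cufflinks is named in its source field per the file headers. Build mm9, TopHat2 2.0.8 and Cufflinks 2.1.1 come from the submitters' processing notes, and how the models were chosen was not stated there. The catalogue is labelled NONCODE, so its models are not taken here as assembled from these libraries. Groups and replicate numbers were read from sample titles. No per-sample column was left out.

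Exons and introns were counted once per locus. Retained introns, skipped exons and splice sites with several partners followed the definitions given with the results. Introns were tied to GENCODE M21 by exact length, and equal lengths by 5′ to 3′ order. Overlapping snoRNA entries were counted once. The members and lists were chosen with earlier results of these data known. Named items were the 8 loci, their longest, shortest and most-exon transcripts, retained introns, extreme introns and exons, the tied snoRNAs and 14 other hosts. Transcripts with a notable feature were named after their values were seen. The procedures were tested on simulated data. Comparisons with the whole catalogue are descriptions without a test, since loci are not replicates. Python 3.11.15, numpy 2.4.6 and matplotlib 3.10.9 were used.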

Additional observations from a re-analysis of the deposited data

How the results depend on the processing

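No paired analysis was possible because the table holds no value per library. Leaving out libraries was not possible for the same reason. The stricter rule for retention, in which the covering exon must start and end where the 2 flanking exons do, left 11 of 34 retained introns, 9 of them in Gas5, since it removes exons that run through several introns or begin inside the transcript. Without Gas5 (NONMMUG002215) 21 were retained. The other settings gave 33 or 34. Skipped exons fell from 8 to 4 when the intron had to join the neighbouring exons. The median of transcripts per locus was 6 with spliced transcripts only. The median internal exon was 68 nt as a median of the 8 medians, 50 nt with 1 transcript per locus and 66.5 nt without Gas5. The median intron was 287.75, 240 and 258 nt under the same 3 settings. The median distance to the 3′ splice site was 77.5 nt with the longest enclosing intron. Of 32 retained counts of single hosts under the alternatives, 25 stayed within 1.5 times. The setting that dropped gaps under 30 nt could change no count, since the shortest host intron was 35 nt. Under the stricter rule only Gas5 (9 against 13) and Snhg3 (0 in every setting) stayed within 1.5 times. Introns with a snoRNA numbered 35 with shared runs only, and 28 with the shortest intron per snoRNA, a setting added after seeing the data. The catalogue lists each model once, so its counts say nothing of how often a form occurs in cells.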
